A study of Rattus norvegicus with 23 samples.

Results

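The genes of the cytosolic ribosomal proteins were followed across 23 RNA-seq libraries from rat femora. Members were the rows of the deposited count table that were annotated as protein coding and carried a symbol of the form Rps or Rpl, a number and at most 1 further letter (a or x). Where a symbol was repeated, the row of highest total count was used. This rule took 70 rows and gave 65 members of the 30562 genes in the table, 28 of the small subunit (Rps) and 37 of the large subunit (Rpl). After the filter on low counts, 62 members were tested (27 Rps and 35 Rpl). The other 3 were Rpl30 with 0 counts, Rpl38 with 7 and Rps20 with 43 over all libraries.

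All libraries came from polyadenylated RNA of the femora of female Wistar rats, and all carry batch label 1. They fall into 5 groups by their titles. Healthy controls on standard diet and saline (n = 4) were libraries A387, A389, A390 and A392. The other groups had metabolic osteoporosis (MetOP), which is induced by feeding high-fat chow together with L-NAME, a blocker of nitric oxide production. They received saline (n = 5, A224, A226, A229, A232 and A265), semaglutide, which activates the GLP-1 receptor (n = 5, A238, A240, A241, A242 and A243), the gut peptide PYY3-36 (n = 4, A215, A216, A219 and A220) or both drugs (n = 5, A248, A251, A253, A318 and A320, the combination). Across the PYY libraries the peptide's name ends in varying numbers in the treatment label, so their common treatment rests on their shared title form, and an abbreviation in the titles of the MetOP groups (lfd) is not explained. Ages and doses are not stated in the labels. Whether each library is a different rat is not stated either, and p-values therefore reflect only how far these samples scatter. Values listed per library follow the order given here.

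Ribosomal proteins are the protein part of the ribosome, which joins a small subunit that reads the messenger RNA to a large subunit that makes the peptide bond. They are needed in equal numbers, and their messenger RNAs are among the most abundant and most evenly expressed in growing cells. Most of these messenger RNAs begin with a C followed by a run of pyrimidines, the 5′ terminal oligopyrimidine (TOP) motif, through which mTORC1 and the protein Larp1 control their translation, and in bone marrow the loss of 1 copy of several of these genes causes Diamond-Blackfan anaemia.

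The transcription starts of the members show how this family is built, and those of members that the results turn on are printed below. They come from the RefSeq promoter entries of build GRCr8, whereas coordinates of genes in the text are those of the deposited table (mRatBN7.2). Of the 65 members, 52 had an entry. Each line gives 5 bases before and 20 bases from the annotated start, and the unbroken run of C or T at the start is in capitals.
Rpl10: agcgtCTCTTTTCCTCTggcgcggt
Rpl10a: gccttCTTTTCCggttcccgcagcc
Rpl17: gcttcCTCTTCCTgttagcggccag
Rpl19: aagctCTTTCCTTTCgctgctgcgt
Rpl39: gcgttCTTCCggcctgtcctttctc
Rps27: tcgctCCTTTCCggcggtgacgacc
Rps23: ctgccTCTCTTCTCTCTTTCTCTCg
Rpl3: ctcgaTCTCTatcggcggcgtgtgg
Rpl4: cttttCCTgtgggagcagccgggta
Rps6: aggcggtcggctgtgtcaagatgaa
The windows stand at chrX:157205845-157205869 (+ strand, Rpl10), chr20:6390528-6390552 (+ strand, Rpl10a), chr18:70856271-70856295 (+ strand, Rpl17), chr10:83519059-83519083 (+ strand, Rpl19), chrX:121195877-121195901 (- strand, Rpl39), chr2:177964587-177964611 (- strand, Rps27), chr2:23814512-23814536 (+ strand, Rps23), chr7:113507971-113507995 (- strand, Rpl3), chr8:73566472-73566496 (+ strand, Rpl4) and chr5:106420521-106420545 (- strand, Rps6). In the first 6 the start was a C followed by at least 4 pyrimidines, the form of the TOP motif. The run of Rps23 was the longest among the members (19 bases) but its annotated start was a T. Rpl3 also started with a T, the run of Rpl4 ended after 3 bases, and Rps6 had no pyrimidine at its annotated start. A C followed by at least 4 C or T at the annotated start was found in 19 of the 52 members (36.5%) and in 2.63% of all 33469 promoter entries. Anywhere from 10 bases before to 15 after the start it was found in 78.8% of the members and 28.9% of all entries. Over the 300 bases of an entry and on either strand, CCGGAA, the core bound by ETS factors, was found in 48.1% of members and 14.95% of all entries. GGGCGG was found in 57.7% and 33.1%, AAGATGGC, a form of the YY1 motif, in 9.62% and 3.17%, and TATAAA in 9.62% and 14.2%. For Rpl38, Rpl39, Rpl9 and Rps10 the entry lay on another chromosome than the deposited row of that symbol. A match describes these letters only, and the start is that of the annotation.

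Library totals ran from 19246641 to 40653404 counts. The 37 mitochondrially encoded genes took 46.1 to 83.9% of them, which left the smaller part for other genes in most libraries. Their share was over 80% in 4 libraries, control A392, MetOP saline A229 and A265, and combination A253. All 12 osteoblast and osteocyte markers were counted, at 0.0364 to 3.28% of the non-mitochondrial counts, and skeletal muscle markers took 0.892 to 17.5%, so the femoral RNA held a variable amount of muscle RNA. In such bulk samples, fewer cells of a type and less RNA per cell cannot be told apart.

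The members were abundant and their summed share of the non-mitochondrial counts was lowest with semaglutide. As a share of all counts it was lowest in MetOP saline (0.788%, against 0.953% with semaglutide). Per length, the tested members had mean deposited FPKM values from 4.56 to 363 with a median of 115. Rpl19, a protein at the rim of the peptide exit tunnel, was highest (363 ± 54.96 SD over 23 libraries), followed by Rps3a (333 ± 58.1) and Rps23 (320.03 ± 65.1), which sits at the decoding centre. At the other end, Rps20 (0.142 FPKM) and Rpl38 (0.0504 FPKM) were listed near 0, and Rpl30 had no count, which allows 3 counts or 0.0594 to 0.2004 CPM, the count scaled to a common library size with the TMM factors. The 65 members together took 3.74, 2.99, 3.14 and 3.796% of the non-mitochondrial counts in the healthy controls and 3.16, 2.98, 3.95, 3.01 and 3.11% in MetOP saline. They took 2.17, 2.52, 2.47, 2.74 and 2.48% with semaglutide. Every semaglutide library thus lay below every control and every MetOP saline library. With PYY they took 2.87, 3.66, 3.06 and 2.62%, and with both drugs 2.83, 2.20, 4.47, 2.86 and 3.53%, and both of these groups overlapped all others. The highest share of all, 4.47%, and that of MetOP saline A229, 3.95%, belong to libraries with over 80% mitochondrial counts.

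On the scale of the tests (CPM scaled with the TMM factors of edgeR) the order was different. The median member level was 7.49 ± 0.055 log2 CPM in healthy controls (SD, n = 4), 7.21 ± 0.16 in MetOP saline (n = 5), 7.04 ± 0.11 with semaglutide (n = 5), 6.90 ± 0.14 with PYY (n = 4) and 7.14 ± 0.24 with both (n = 5). The libraries of PYY lay below all controls and all MetOP saline libraries (highest PYY 7.01, lowest MetOP saline 7.04), and those of semaglutide below all controls. All other pairs of groups overlapped, neighbours in the order of the means included. On this scale PYY was the lowest group, whereas its summed share overlapped that of MetOP saline, so statements on direction below hold for the TMM scale.

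**Figure D1:**
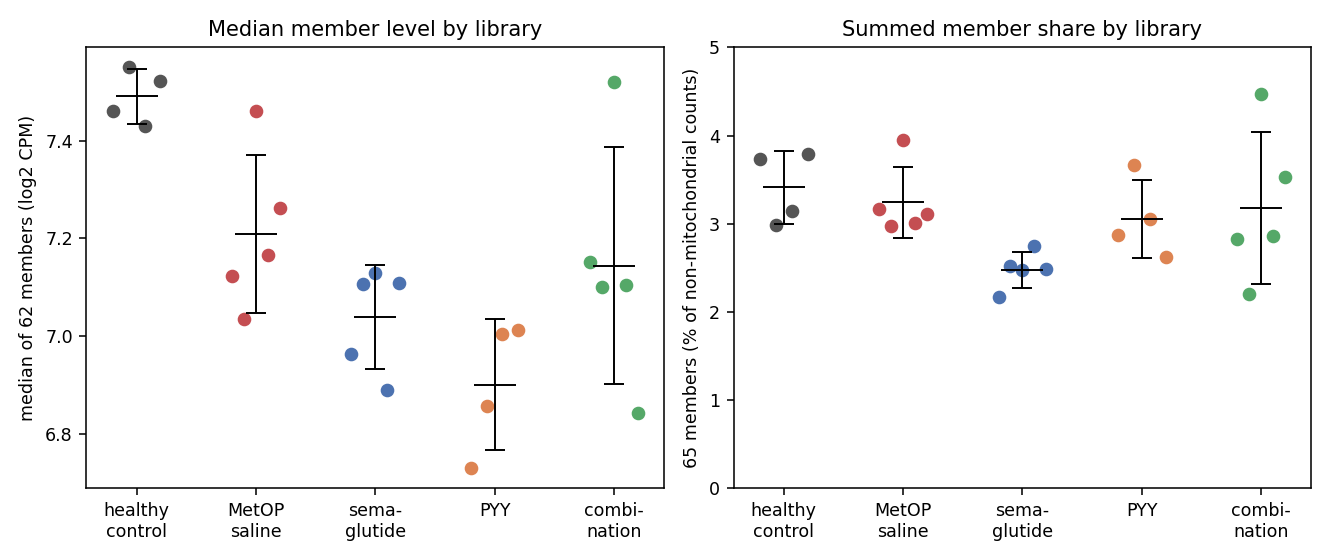
Median level of the 62 tested members in log2 CPM on the TMM scale (left) and summed share of the 65 members in percent of non-mitochondrial counts (right). Each point is 1 library, bars are mean and SD of a group; controls have the highest mean on the left (7.43 to 7.55) and semaglutide the lowest on the right (2.17 to 2.74%).

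The members varied little between libraries of a group. Their median within-group SD was 0.20 on the log2 CPM scale, against 0.80 for all tested genes, which were also less abundant (mean level 2.16 log2 CPM against 7.14). The biological coefficient of variation estimated per gene by edgeR was 24.6% for the median member and 52.4% for the median gene. Taken relative to the summed count of all tested members, the SD of a member over the 23 libraries had a median of 0.14 on the log2 scale, and it was under 0.15 in 39 of 62. Rpl19 (0.080), Rps15a (0.083) and Rps7 (0.084) kept closest to the total. Rpl35a (1.69), Rpl3 (0.68), which forms part of the site of peptide bond formation, and Rpl9 (0.43) strayed most.

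Members whose protein entry is spread over several gene rows strayed more. The deposited descriptions name a protein entry for each gene row, and 612 rows named one of 80 cytosolic ribosomal protein entries, 64 of which had a member. Members held 82.6% of the counts of all 80 entries, with a median of 94.7% per member. In 8 members the row held under 50% of its entry, and most counts stood in other rows. Rpl9 held 1.40%, and the row Rpl9-ps30 (chromosome 14, 42893942 to 42897136) held 144101 counts or 97.9%. Rps10 held 15.9%, Rpl39 19.1% and Rpl35a 31.0%. Rps20-ps10 held 98.9% of the entry of Rps20, Rpl38-ps9 97.7% of that of Rpl38, and a row named Rpl30 but annotated as a long non-coding RNA held 64.3% of that of Rpl30. The very low levels of these 3 members are thus levels of a row and not of the protein entry.

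Among the tested members with an entry, the 12 that held under 75% of it had a median SD around the total of 0.28 (0.20 to 1.69). The 49 that held 75% or more had a median of 0.13 (0.080 to 0.23, apart from Rpl3 at 0.68). After all rows of an entry were summed, a step added after the values were seen, the SD of the 12 was lower in 12 of 12 cases, with a median of 0.16. For Rpl3, whose only row holds all counts of its entry, summing could alter nothing.

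**Figure D2:**
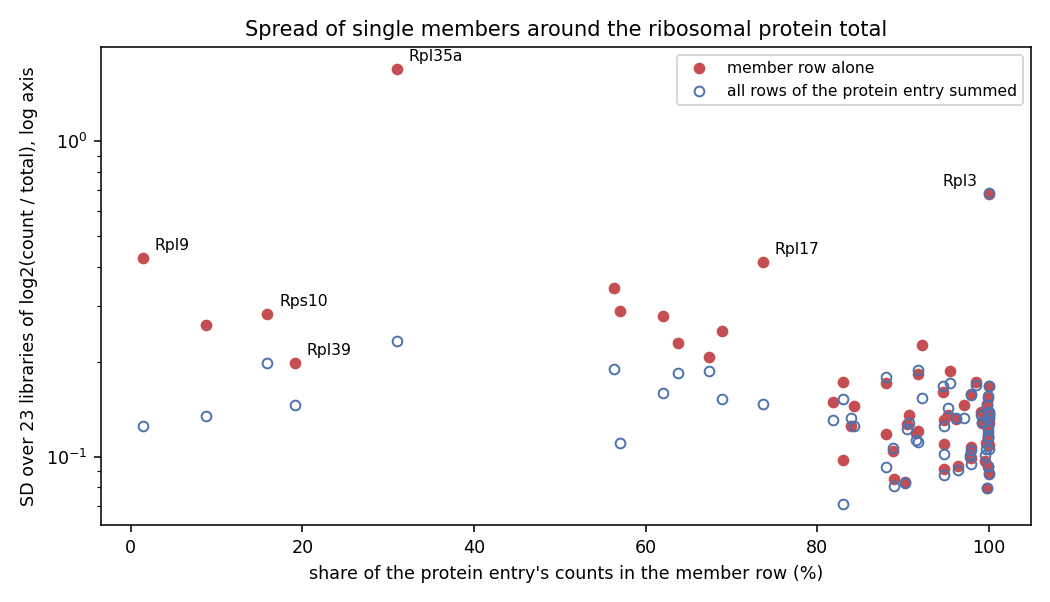
Share of a protein entry's counts held by the member row (horizontal, percent) and SD over 23 libraries of log2(count / summed member counts) on a log axis, for the member row alone (filled) and for all rows of the entry summed (open). Members holding under 75% stand higher (median 0.28) than the others (0.13) until the rows are summed, and Rpl3 stays at 0.68.

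In MetOP saline against healthy controls, the question is what the model does to the femur before any drug, and ribosomal protein genes were lower nearly throughout without any passing the test. Of the 62 tested members, 60 had a fitted log2 fold change below 0 (27 of 27 Rps and 33 of 35 Rpl), where 47.4% of the tested genes did. Their median was -0.29 (quartiles -0.35 and -0.22), and that of all genes was 0.04. None was called by the quasi-likelihood test of edgeR at a Benjamini-Hochberg adjusted p under 0.05 (smallest adjusted p = 0.683), as was none of all genes (0%). At an unadjusted p under 0.05, 6 members were lower (1.87% of all genes) and 0 higher (4.68%). DESeq2 called 1 member (0.332% of all genes with an adjusted p) and limma voom 0 (0%). In 15 of 62 members every MetOP saline library lay below every control, against 1.2% of all tested genes.

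The largest of these differences was in Rps27, a zinc-binding protein of the small subunit (chromosome 2, 175665853 to 175666964). It stood at 113, 114, 109 and 108 CPM in the controls and 79.9, 67.3, 74.3, 91.4 and 78.3 CPM in MetOP saline. The groups did not overlap, and the fitted log2 fold change was -0.51 ± 0.19 (SE, edgeR adjusted p = 0.683). Rpl10a, a protein of the L1 stalk near the tRNA exit (chromosome 20, 6385823 to 6391357), stood at 117, 96.2, 92.5 and 108 CPM in the controls and 79.8, 79.5, 77.2, 66.5 and 74.3 CPM in MetOP saline (-0.45 ± 0.18, edgeR adjusted p = 0.692). The lowest control was again above the highest MetOP saline library. The 2 members with a value above 0 were Rpl3 (0.14 ± 0.41) and Rpl35a (0.12 ± 0.99), the most variable of all.

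Skeletal muscle markers moved in the same direction, with 13 of 13 lower (median -0.45), and took 9.08 to 14.9% of non-mitochondrial counts in controls and 6.27 to 12.3% in MetOP saline. With the muscle level as a covariate the median of the members was -0.27, with 59 of 62 below 0. Without the 4 libraries over 80% mitochondrial it was -0.35, with 59 of 62 below 0.

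**Figure D3:**
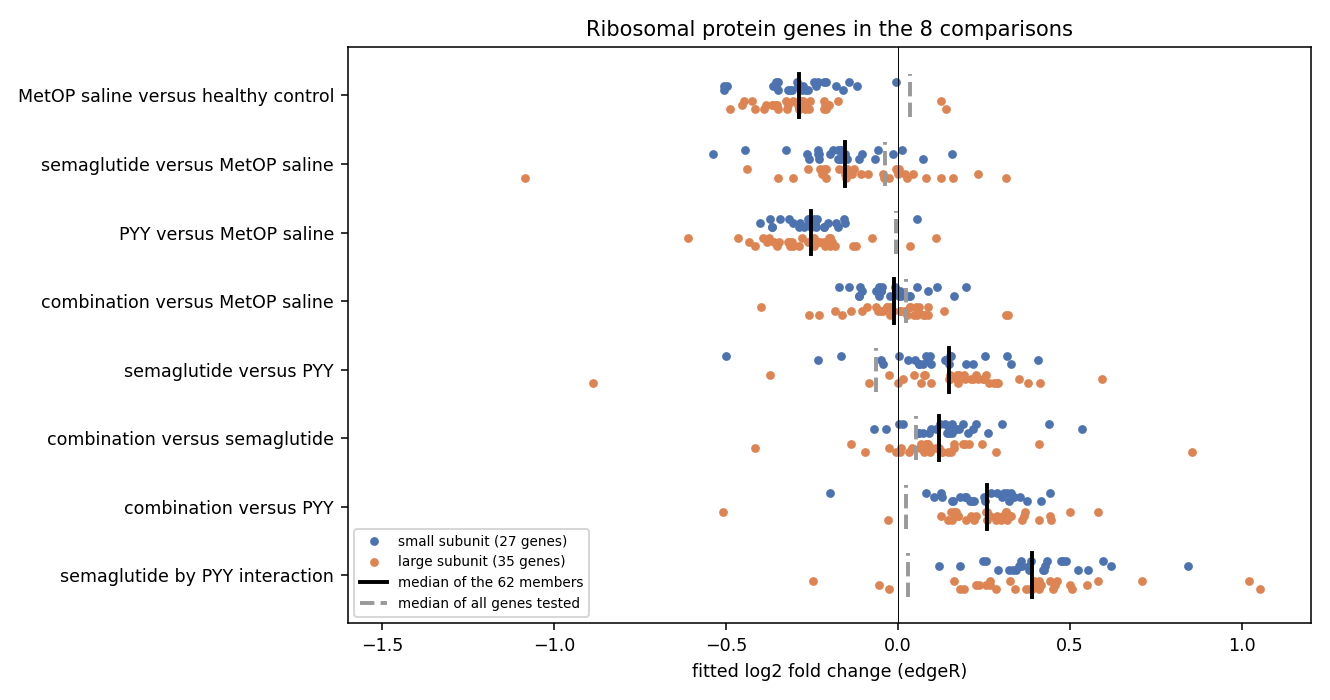
Fitted log2 fold changes (horizontal) of the 62 tested members in the 8 comparisons, each point 1 gene, small subunit above and large subunit below each line; the solid bar is the members' median and the dashed bar that of all tested genes. Members cluster to the left in MetOP saline versus healthy control (median -0.29) and PYY versus MetOP saline (-0.25) and to the right in the interaction (0.39).

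With semaglutide against MetOP saline, which asks what the drug adds to the model, the members were spread more widely. Of 62 members, 49 had a value below 0, against 52.4% of all genes, with a median of -0.15 (all genes -0.04). No member was called by edgeR (smallest adjusted p = 0.393; 0% of all genes), DESeq2 (0.662%) or limma voom (0%). At an unadjusted p under 0.05, 2 were lower (7.24% of all genes) and 0 higher (4.18%). Groups did not overlap in 2 members, Rps24 and Rps27a, both lower (1.75% of all genes), and in 0 with semaglutide higher (2.71%). The median was -0.04 without the 4 libraries over 80% mitochondrial and -0.09 without MetOP saline A229 alone.

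Rpl3 had the largest fold change of any member here (chromosome 7, 111621610 to 111636468). It stood at 166, 128, 272, 157 and 139 CPM in MetOP saline and at 49.5, 76.1, 133, 92.8 and 55.4 CPM with semaglutide. Semaglutide A241, at 133, reached above the lowest MetOP saline library, so the groups overlapped by 1 library, and the log2 fold change was -1.08 ± 0.39 (edgeR adjusted p = 0.393). Rps27a, which is made as a fusion with ubiquitin (chromosome 14, 103285734 to 103288011), stood at 160.0, 170.5, 166, 140.1 and 164 CPM in MetOP saline and 98.6, 116, 110.1, 101 and 125 CPM with semaglutide. Its groups did not overlap (-0.54 ± 0.24, edgeR adjusted p = 0.405), but with all rows of its entry summed the value was -0.35 ± 0.23 (adjusted p = 0.558). Rps28, a small protein near the messenger RNA exit, was at -0.33 ± 0.18 (edgeR adjusted p = 0.478), and its row held 67.4% of its entry. Rpl21 (0.31 ± 0.24) and Rpl7a (0.16 ± 0.22) were among the 13 members above 0 (47.6% of all genes).

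Erythroid markers were lower in 11 of 11 cases in this comparison (median -1.52), at 2.03 to 11.7% of the non-mitochondrial counts in MetOP saline and 0.411 to 4.38% with semaglutide. Muscle markers were higher in 13 of 13 (median 0.85), at 6.27 to 12.3% and 8.11 to 17.1%. Osteoblast and osteocyte markers were lower in 12 of 12 (median -2.23), chondrocyte markers in 8 of 8 (-5.62) and cell cycle genes in 14 of 14 (-1.46). With the muscle level as a covariate the members had a median of -0.18. The part of the other marker lists in the members' values was not tested.

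With PYY against MetOP saline, 59 of 62 members had a value below 0 (50.5% of all genes), with a median of -0.25 and quartiles of -0.32 and -0.20 (all genes -0.01). Neither edgeR (smallest adjusted p = 0.962; 0% of all genes) nor DESeq2 (0.0253%) or limma voom (0%) called a member. At an unadjusted p under 0.05, 2 were lower (1.38% of all genes) and 0 higher (3.46%). In 10 members every PYY library lay below every MetOP saline library (0.825% of all genes), and in 0 above (1.11%). Among the 10 were Rpl10, Rpl11, Rpl26, Rpl36a, Rpl37, Rps6, Rps9, Rps15a and Rps24. The median was -0.13 without PYY A215, -0.15 without the 4 libraries over 80% mitochondrial, and -0.23 with a muscle covariate in the model. Muscle markers were lower in 12 of 13 cases (median -0.59), erythroid markers in 11 of 11 (-0.77) and cell cycle genes in 14 of 14 (-0.70), neutrophil markers were lower in 10 of 10 (-1.30), and fibroblast (1.11) and endothelial markers (0.94) were higher in 8 of 8 each. The part of the lists other than muscle in the members' values was not tested.

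Rpl11, which with Rpl5 and 5S RNA forms the particle that binds Mdm2 (chromosome 5, 148274069 to 148277599), stood at 141, 136, 153, 139.5 and 171 CPM in MetOP saline and 112, 117, 108 and 114 CPM with PYY. The lowest MetOP saline library was above the highest PYY library (-0.39 ± 0.20, edgeR adjusted p = 1.00). Rps6, the substrate of S6 kinase (chromosome 5, 101371136 to 101374602), stood at 339.6, 346, 463, 345 and 372 CPM and 264, 301, 305 and 307 CPM. Here too every PYY library was below every MetOP saline library (-0.34 ± 0.26, edgeR adjusted p = 1.00). Rpl39, which lines the peptide exit tunnel (chromosome 18, 6326330 to 6326692), had the smallest p (-0.46 ± 0.19, edgeR adjusted p = 0.962), but its row held 19.1% of its entry and all rows summed gave -0.35 ± 0.19. Rpl17, also at the tunnel (chromosome 18, 68581098 to 68584253), was at -0.61 ± 0.29 alone and -0.41 ± 0.23 with its rows summed. Rpl37 was at -0.43 ± 0.22. Only Rps12 (0.06 ± 0.27), Rpl21 (0.03 ± 0.25) and Rpl35a (0.11 ± 0.99) were above 0, and all 3 were below 0 with the rows of their entries summed (-0.25, -0.17 and -0.24).

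With both drugs against MetOP saline the members were centred near 0. Of 62, 34 were below 0 (47.5% of all genes) and 28 above, with a median of -0.01. Removing the mitochondrial genes before scaling turned this to 0.01, and it was -0.11 without combination A253 and 0.05 without MetOP saline A229. No member was called by edgeR (smallest adjusted p = 1.00; 0% of all genes), DESeq2 (0.0253%) or limma voom (0%), none had an unadjusted p under 0.05 (1.46% of all genes higher and 1.6% lower) and in none were the groups apart (0.177% higher and 0.223% lower). Rpl7a (0.31 ± 0.22) and Rpl21 (0.32 ± 0.24) had the smallest p among those above 0, and Rpl12 (-0.26 ± 0.24), Rps21 (-0.17 ± 0.17) and Rpl36a (-0.16 ± 0.17) among those below.

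Between the drug groups, the combination was higher than PYY alone in 59 of 62 members (52% of all genes) and lower in 3 (48%), with a median of 0.26. Groups did not overlap in 4, among them Rpl11, Rps9 and Rps15, all higher with both drugs (0.517% of all genes), and 0 were lower without overlap (1.07%). No member was called (smallest edgeR adjusted p = 0.713; 0% of all genes; 0 by DESeq2, which called 0.0658% of all genes, and by limma voom, 0.00655%), and 1 had an unadjusted p under 0.05, Rpl39 (0.50 ± 0.19; 2.05% of all genes higher). Rpl24 (0.44 ± 0.22) and Rpl17 (0.58 ± 0.29) followed. The median was 0.14 without PYY A215 and 0.16 without the 4 libraries over 80% mitochondrial. Combination A320, at 6.84, was the lowest of its group in median log2 CPM and lay within the PYY range of 6.73 to 7.01. Muscle markers were higher with both drugs in 12 of 13 cases (median 0.98) and neutrophil markers in 9 of 10 (1.54), while fibroblast markers were lower in 7 of 8 (-1.96) and endothelial markers in 8 of 8 (-0.81). With a muscle covariate the median of the members was 0.22, and the part of the other lists was not tested.

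Semaglutide was higher than PYY in 53 of 62 members (46.7% of all genes; median 0.15), and the median was 0.01 without PYY A215 and 0.07 with a muscle covariate. By edgeR (smallest adjusted p = 0.269; 0.00655% of all genes), DESeq2 (4.33% of all genes) and limma voom (0.00655%) 0 members were called. Unadjusted p was under 0.05 for 1 member that was higher (6.93% of all genes) and for Rpl3, lower at -0.89 ± 0.40 (9.93% of all genes). Groups did not overlap in 3 members, Rpl5 and Rpl24 among them (2.89% of all genes), all higher with semaglutide. Rps12 (-0.50 ± 0.27), Rps27a (-0.23 ± 0.25), Rpl27 (0.38 ± 0.23) and Rpl4 (0.41 ± 0.25) were the others of smallest p, and Rps27a was at 0.02 with its rows summed. Muscle markers were higher with semaglutide in 13 of 13 cases (median 1.44). Lower were fibroblast (8 of 8, -2.70), osteoblast and osteocyte (12 of 12, -2.06), chondrocyte (8 of 8, -5.38) and endothelial markers (8 of 8, -0.96), whose part in the members' values was not tested.

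The combination was higher than semaglutide alone in 55 of 62 members (53.7% of all genes) and lower in 7 (46.3%), with a median of 0.12, but the median was 0.02 without combination A253 and likewise without the 4 libraries over 80% mitochondrial. The count of called members was 0 by edgeR (smallest adjusted p = 0.816; 0% of all genes), DESeq2 (0.107%) and limma voom (0%). Unadjusted p was under 0.05 for Rps28 (0.44 ± 0.18), Rps27a (0.54 ± 0.24) and Rpl3 (0.85 ± 0.39), all higher (3.99% of all genes), and in none were the groups apart (0.288%). Rps28 stood at 23.01, 17.8, 20.7, 22.8 and 25.2 CPM with semaglutide and 26.4, 31.2, 43.00, 23.6 and 24.2 CPM with both drugs. Combination A253 was the highest of these and A318 and A320 lay within the semaglutide range. The rows of Rps28 and Rps27a held 67.4 and 57.0% of their entries. Erythroid markers (11 of 11, median 1.24), cell cycle genes (14 of 14, 1.14) and macrophage markers (8 of 8, 0.95) were higher with both drugs, and muscle markers lower (13 of 13, -0.60). With a muscle covariate the median of the members was 0.13, and the part of the other lists was not tested.

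The interaction asks whether both drugs together depart from the sum of their separate log2 effects. It was above 0 in 59 of 62 members (51.7% of all genes), with a median of 0.39 (all genes 0.03). No member was called by edgeR (smallest adjusted p = 0.999; 0% of all genes), DESeq2 (0.0152%) or limma voom (0%). At an unadjusted p under 0.05, 5 were above 0 (2.89% of all genes) and 0 below (1.7%). These were Rpl39 (0.71 ± 0.27), Rpl17 (1.02 ± 0.40), Rps27a (0.84 ± 0.35), Rps28 (0.60 ± 0.26) and Rpl11 (0.58 ± 0.28). Rpl39, Rpl17, Rps27a and Rps28 are split over copies, and the row of Rps28 held 67.4% of its entry. With their rows summed Rpl39, Rpl17 and Rps27a were at 0.63 ± 0.26, 0.64 ± 0.31 and 0.61 ± 0.34. Without the 4 libraries over 80% mitochondrial the median was 0.18, with 56 of 62 above 0. Values above 0 were found for erythroid (11 of 11, median 1.97), neutrophil (10 of 10, 2.09), T and NK cell (5 of 5, 2.30), osteoblast and osteocyte (12 of 12, 1.22) and chondrocyte markers (8 of 8, 2.49) and cell cycle genes (14 of 14, 1.88), and their part in the members' values was not tested.

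All these medians depend on the scaling. With the summed count of the ribosomal proteins as library size, the members' median is near 0 by construction. It was -0.01 in MetOP saline versus controls, -0.01 with semaglutide, 0.01 with PYY and -6.67e-05 in the interaction. The median of all genes moved to 0.32, 0.09, 0.25 and -0.33. No member was called on this scale either.

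Grouped by place and role in the ribosome, the members differed little in direction. Small and large subunit had medians of -0.28 and -0.29 in MetOP saline versus controls, -0.17 and -0.13 with semaglutide, -0.25 and -0.26 with PYY, and 0.38 and 0.39 in the interaction. Of the 18 tested genes whose loss causes Diamond-Blackfan anaemia, 17 were below 0 in MetOP saline versus controls (median -0.29), 13 with semaglutide (-0.16) and 17 with PYY (-0.28). Among them Rps19, the gene first tied to that disease (chromosome 1, 80480951 to 80486508), stood at 101, 114, 101 and 126 CPM in controls, 86.3, 86.2, 103, 78.7 and 92.1 in MetOP saline, 74.4, 89.97, 77.8, 70.7 and 84.8 with semaglutide, 64.5, 77.1, 80.5 and 80.6 with PYY and 98.2, 86.7, 105, 73.4 and 75.7 with both. All PYY and all semaglutide libraries lay below all controls, while MetOP saline A229 lay above controls A387 and A390. Its log2 fold changes were -0.31 ± 0.19, -0.17 ± 0.18, -0.24 ± 0.19 and -0.02 ± 0.18 in MetOP saline versus controls and in the 3 drug groups versus MetOP saline.

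The 9 proteins of the peptide exit tunnel and its rim were below 0 in 9, 8 and 9 cases in MetOP saline versus controls, with semaglutide and with PYY (medians -0.29, -0.15 and -0.32). In the 5S particle, Rpl5 was at -0.20 ± 0.23, 0.00 ± 0.22 and -0.22 ± 0.24 and Rpl11 at -0.18 ± 0.20, -0.21 ± 0.19 and -0.39 ± 0.20 in the same order. Rpl10, which is added last to the large subunit (chromosome X, 152054452 to 152056761), was at -0.21 ± 0.23, -0.03 ± 0.22 and -0.31 ± 0.23. Rpl22, which binds RNA outside the ribosome and has the paralog Rpl22l1, was at -0.32 ± 0.18, -0.15 ± 0.17 and -0.35 ± 0.18, and Rpl22l1 at -0.25 ± 0.18, -0.14 ± 0.17 and -0.46 ± 0.18. None of these was called. The 19 members with a C and at least 4 pyrimidines at the annotated start had medians of -0.31, -0.15 and -0.31, and the 32 tested members without them -0.27, -0.17 and -0.23. Of the 19, 17 had their promoter entry on the chromosome of the tested row. The entries of Rpl39 and Rpl9, and that of Rps10 among the 32, lay on another chromosome.

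Ribosomal proteins outside the symbol rule, among them the stalk proteins Rplp0, Rplp1 and Rplp2, Rpsa, Fau and the scaffold Rack1, had the same directions. All 7 were below 0 in MetOP saline versus controls (median -0.34), with semaglutide (-0.13) and with PYY (-0.38), and all 7 were above 0 in the interaction (0.44). The row named Fau holds 3384 counts on chromosome 6 and had the largest value in MetOP saline versus controls (-0.62 ± 0.24, edgeR adjusted p = 0.692). Rack1 was at -0.41 ± 0.23 and Rplp2 at -0.29 ± 0.21. Of 9 paralogs, 6, 7 and 8 were below 0 in the same comparisons, and Rpl37l1 was at -0.78 ± 0.21 with PYY.

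The 72 genes of the mitochondrial ribosome, a separate particle that translates the mitochondrial genome, were lower in 64 cases in MetOP saline versus controls (median -0.33) and in 61 with PYY (-0.32). With semaglutide they went the other way from the cytosolic members, with 69 of 72 above 0 (median 0.38), for example Mrpl49 (0.76 ± 0.26) and Mrps31 (0.77 ± 0.32). None passed the test. Of 54 genes of ribosome biogenesis, 34, 21 and 39 were below 0 in MetOP saline versus controls, with semaglutide and with PYY (medians -0.12, 0.05 and -0.15). Of 17 translation factors with TOP messenger RNAs, 12, 8 and 14 were below 0 (-0.25, 0.06 and -0.21). Among 24 regulators of ribosomal protein synthesis, Myc (-1.20 ± 0.35) and Mtor (0.62 ± 0.22) had the smallest p with semaglutide, and Tsc2 (-0.65 ± 0.21) and Rictor (1.39 ± 0.57) in MetOP saline versus controls. None of the genes in these lists was called.

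Rpl3 and its paralog Rpl3l, which takes its place in striated muscle, stood furthest apart in libraries with the most and the least muscle RNA. Rpl3 stood at 201, 104, 137 and 183 CPM in controls, 145, 203, 169.9 and 83.1 with PYY and 109, 42.2, 259, 132 and 194 with both drugs. Rpl3l (chromosome 10, 13753886 to 13764457) stood at 88.7, 197, 129 and 105 CPM in controls, 72.1, 91.3, 42.9, 80.7 and 139.7 in MetOP saline, 214, 154, 171, 103 and 199 with semaglutide, 54.7, 10.2, 66.6 and 130.0 with PYY and 127, 225, 46.6, 109 and 8.83 with both drugs. The ratio of Rpl3 to Rpl3l counts was 0.188 in combination A251 and 0.231 in semaglutide A238, where muscle markers took 17.5 and 17.1% of non-mitochondrial counts. It was 19.9 in PYY A216 and 21.9 in combination A320, where they took 1.54 and 0.892%. Within semaglutide the ratio was highest in A242 (0.901, muscle 8.11%). Not every library followed this order, since the ratio was higher in A241 (0.778, muscle 14.6%) than in A240 (0.494, muscle 13.8%). Rpl3 alone was highest in A241 (133 CPM) and lower in A242 (92.8 CPM).

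This was followed for all 62 members as the correlation across the 23 libraries of log2(count / summed member counts) with the muscle marker share, a relation added after the values were seen. Rpl3 had Pearson's r = -0.86 (permutation p = 1e-05, the smallest that 100000 resamples can give; Benjamini-Hochberg adjusted over 62 members 0.00031) and Spearman's rho = -0.86 (permutation p = 1e-05). Without the 2 libraries farthest from the median muscle share (PYY A216 and combination A320) r was -0.85, and within groups it was -0.82 (permutation within groups, adjusted p = 0.00645). In all, 22 of 62 members passed over all libraries, 14 with a positive and 8 with a negative r, and 13 of these 22 also passed within groups. Erythroid markers took 0.344 and 0.411% of non-mitochondrial counts in combination A251 and semaglutide A238, the libraries with the most muscle RNA. They took 4.83 and 11.6% in PYY A216 and combination A320, those with the least. Relations of the members to the erythroid or other marker shares were not tested.

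Besides Rpl3, the members that passed in both with a negative r were Rps23 (-0.75), Rps14 (-0.67), Rps3a (-0.65) and Rps3 (-0.63). Those with a positive r included Rpl27 (0.81), Rpl4 (0.81), Rps25 (0.73), Rpl31 (0.72), Rpl24 (0.68), Rpl7a (0.66) and Rpl21 (0.59). Without PYY A216 and combination A320 the negative values were -0.72, -0.63, -0.64 and -0.54 in the same order. The positive ones were then 0.74, 0.76, 0.69, 0.56, 0.68, 0.72 and 0.45. Rpl4, a protein whose loop reaches into the exit tunnel, stood at -5.09 in combination A320 and at -4.45 in semaglutide A238 on this log2 scale, and Rpl27 spanned -6.80 to -6.13. Rpl3 spanned -7.75 to -5.27. Relative shares of 1 total are not independent of each other, and Rpl7a and Rpl21 are split over copies. With the muscle level as a covariate the semaglutide value of Rpl3 was -0.94 ± 0.34 (edgeR adjusted p = 0.434), against -1.08 without it.

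**Figure D4:**
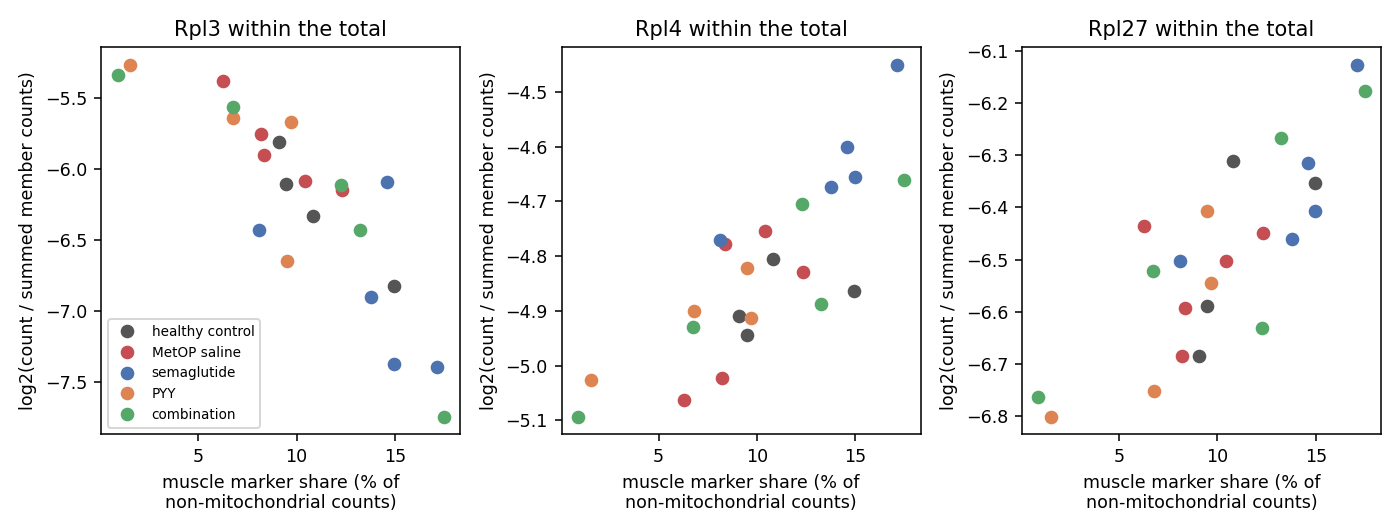
Skeletal muscle marker share (horizontal, percent of non-mitochondrial counts) against log2(count / summed member counts) of Rpl3, Rpl4 and Rpl27, each point 1 library coloured by group. Rpl3 spans -5.27 to -7.75 and is lower in libraries with more muscle RNA, while Rpl4 and Rpl27 are higher in libraries with more muscle RNA.

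The ratio of counts between copies of a gene fell into bands, and each band held libraries of several groups. Counts of Rpl17 were set against RGD1359290, a row on chromosome 10 (92373775 to 92389465) with the same protein entry. A new band was started where neighbouring ratios differed by at least 1.6 times. The ratio was 0.634 to 1.23 in 5 libraries from 4 groups and 2.38 to 4.19 in 14 libraries from 5 groups. It was 16.0 to 30.4 in 4 libraries from 3 groups. Rpl17 thus held 38.8 to 96.8% of the pair. Counts of Rps27a stood to those of Rps27a-ps1 at 0.878 to 1.41 in 18 libraries and at 2.37 to 4.71 in 5, namely A226, A248, A320, A390 and A219. In this ratio all semaglutide libraries (0.909 to 1.03) lay below all MetOP saline libraries (1.04 to 2.37), and no semaglutide library was in the upper band. Rpl35a stood at 7.41, 37.1, 1.78 and 23.3 CPM in controls, 35.5, 4.83, 5.75, 42.4 and 6.05 in MetOP saline, 23.1, 25.4, 1.71, 25.8 and 2.99 with semaglutide, 20.4, 10.5, 3.64 and 47.3 with PYY and 39.7, 23.1, 2.13, 3.13 and 3.93 with both. High and low libraries occurred in every group, and with all rows of its entry summed its fold changes lay between -0.24 and 0.33. Levels of these 3 members by single row are uncertain as levels of the gene, and what sets the ratios was not tested.

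**Figure D5:**
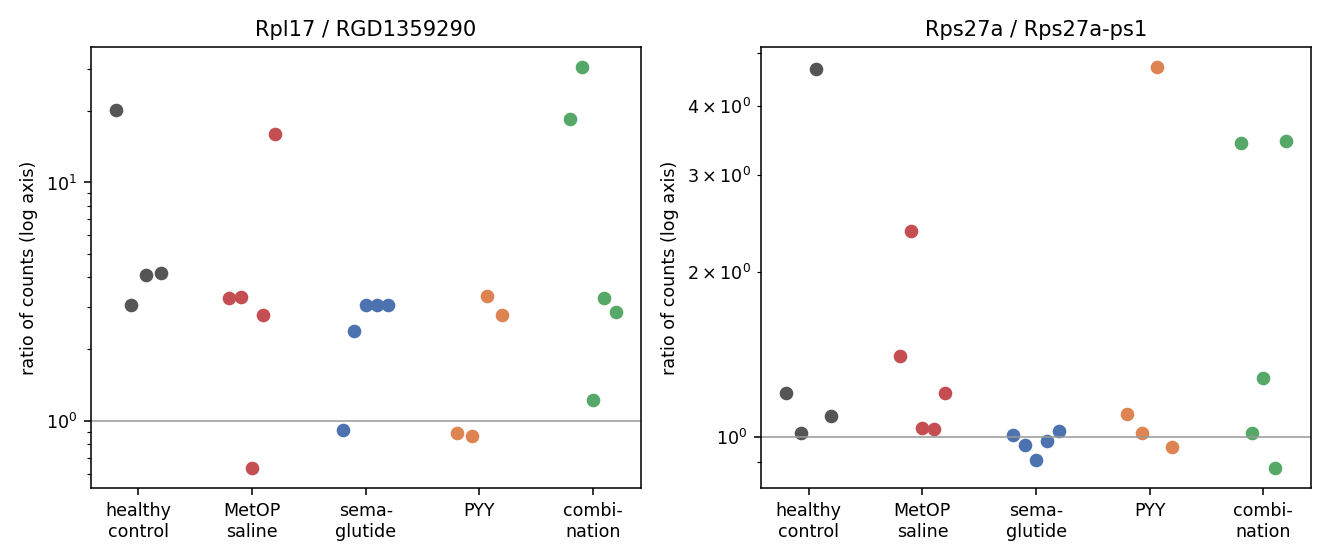
Ratio of the counts of Rpl17 to RGD1359290 (left) and of Rps27a to Rps27a-ps1 (right) on log axes, each point 1 library by group. Ratios of Rpl17 fall into bands of 0.634 to 1.23, 2.38 to 4.19 and 16.0 to 30.4, each of which holds libraries of several groups.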

How the data were processed

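RNA-seq of 23 femur libraries was analysed from the gene table deposited by the authors. It holds raw counts per gene and FPKM values that the authors deposited beside them. The build mRatBN7.2 and DESeq2 1.42.0 are named per the submitters' processing notes, and the aligner, the counter and the use of strand are not stated in the labels, so reads of overlapping genes and near-identical copies may be shared between them. The deposited FPKM values equal the counts per length divided by a depth proportional to the DESeq2 size factor. No column of another sample was found (0 columns left out). Library pairs within groups (42) all differed beyond sampling noise, with a chi-square per degree of freedom of at least 50.1.

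Counts of 15271 of 30562 genes (library totals of 19246641 to 40653404) passed the expression filter of edgeR (filterByExpr, minimum count 10) and were fitted in 1 model with a mean per group (edgeR 4.0.16, TMM scaling, robust quasi-likelihood test, R 4.3.3, 18 residual degrees of freedom). P-values were adjusted by Benjamini-Hochberg over all tested genes, with a threshold of 0.05. Each ± after a log2 fold change is an approximate standard error, the absolute log2 fold change divided by the square root of the quasi-likelihood F statistic. Values per library are CPM on the TMM scale, and log2 CPM uses a prior count of 2. DESeq2 1.42.0 (shares of genes over those it gave an adjusted p) and limma 3.58.1 (voom), other scalings and filters, and leaving out each library in turn were alternatives. Summing rows of a protein entry, leaving out libraries with over 80% mitochondrial counts, and the relation to the muscle share were added after the data were seen. On data simulated for semaglutide versus MetOP saline, the fit called 75 of 200 genes changed 2-fold, with 4 false calls among 14389 genes, and 200 of 200 changed 4-fold, with 11 among 14432. These values hold for the spread set in that simulation only. The same spread was set for every simulated gene. It was smaller than that of the median measured gene (biological coefficient of variation 52.4%) and larger than that of the median member (24.6%). Recovery in the measured libraries can therefore not be read from these counts.

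Named genes were the 3 of smallest p in each direction of a comparison, the 3 highest and lowest by FPKM, the 3 with the largest and smallest spread around the member total, members of fixed role, and, from other lists, the 2 of smallest p. Other members named by their groups not overlapping or by the muscle relation were chosen after their values were seen. The members and lists were chosen with earlier results of these data known. Figures of counting precision (3 counts for a count of 0) cover counting error only. Results of some members are not reported here.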

Additional observations from a re-analysis of the deposited data

Results flagged for a closer look

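Over 15 members, the paralog Rpl3l, the summed share and the median member level, 90 groups of libraries were examined for a library far from the others of its group, and 7 were found, where chance gives about 5% of groups. MetOP saline A229 was high in the summed member share (3.95%, others 2.98 to 3.16%), in Rpl3 (271.5 CPM, others 128 to 166) and in Rps6 (463 CPM, others 339.6 to 372). Control A392 was high in Rps6 (487 CPM, others 408 to 421). Both of these libraries have over 80% mitochondrial counts. PYY A215 was low in Rps6 (264 CPM, others 301 to 307) and in Rps28 (21.0 CPM, others 25.7 to 25.8). Semaglutide A238 was low in Rps6 (270.4 CPM, others 329 to 352), and it also had the highest muscle marker share of its group (17.1%). The part of these shares in the levels was not tested.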

How the results depend on the processing

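No paired analysis was possible because the groups share no replicate numbers. Of 172 alternative fits, 1 called a member, DESeq2 in MetOP saline versus controls (1 member, where it called 0.332% of all genes). With the ribosomal protein total as library size the medians were -0.0093 in MetOP saline versus controls, 0.012 in PYY versus MetOP saline, 0.013 in combination versus PYY and -6.67e-05 in the interaction, by construction of that scale. Without the libraries over 80% mitochondrial the interaction median was 0.18. The within-group SD of the median member level was 0.16 log2 CPM. The members' medians in semaglutide versus MetOP saline (-0.15), semaglutide versus PYY (0.15) and combination versus semaglutide (0.12) were smaller than this SD in size. How small a difference 4 or 5 libraries per group can resolve was not tested.

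As a share of all counts, mitochondrial ones included, the members took 1.06% in controls, 0.788% in MetOP saline, 0.953% with semaglutide, 1.08% with PYY and 0.965% with both drugs. All rows of the 80 protein entries took 4.13, 3.93, 3.03 and 3.65% of non-mitochondrial counts in controls, MetOP saline, semaglutide and PYY. These rows include paralogs such as Rpl3l and leave out Rps7. The members with the proteins outside the symbol rule added took 2.74% with semaglutide.

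Of 47 named member values, 34 kept their sign under every alternative. Of 1012 alternative values, 48 changed sign, 35 of them when a library was left out. With rows of an entry summed, Rpl35a was at -0.15 (MetOP saline versus controls), -0.24 (PYY versus MetOP saline), 0.21 (combination versus PYY) and 0.33 (interaction), Rps12 at -0.25 (PYY) and 0.18 (combination versus PYY), Rpl21 at -0.17 (PYY) and 0.16 (interaction), Rps27a at 0.022 (semaglutide versus PYY) and Rpl9 at 0.25 (interaction). Without the libraries over 80% mitochondrial Rpl35a was at -0.38 with PYY and 0.53 in the interaction, and with the muscle covariate Rpl3 was at 0.15 in combination versus PYY. Leaving out each library gave, in PYY versus MetOP saline, -0.038 to 0.27 for Rps12, -0.056 to 0.19 for Rpl21 and -0.72 to 0.64 for Rpl35a. In combination versus PYY it gave -1.34 to 0.32 for Rpl35a and -0.33 to 0.15 for Rpl3. In the interaction it gave -1.08 to 0.58 for Rpl35a, -0.24 to 0.089 for Rpl9 and -0.17 to 0.11 for Rpl21. In MetOP saline versus controls it gave -0.084 to 0.28 for Rpl3 and -0.41 to 0.81 for Rpl35a, and in combination versus semaglutide -0.17 to 0.011 for Rpl4. The cause was not tested.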
